A study of Mus musculus with 8 samples.

Results

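The proteasome is encoded in the mouse by genes whose symbols begin with Psm, and the genes described here are the protein-coding genes with a symbol of Psma to Psmg followed by a digit. This rule took 50 of the 49315 genes in the count files, and 48 of them were among the 14970 genes with enough reads to be tested. They comprise 14 subunits of the constitutive core particle, the 5 immunoproteasome genes Psmb8, Psmb9, Psmb10, Psme1 and Psme2, 17 subunits of the 19S regulatory particle, and 14 other members that include activators, an inhibitor and assembly chaperones.

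The RNA came from OT-I CD8 T cells, cytotoxic T cells of mice whose transgenic T cell receptor recognises an ovalbumin peptide, and the cells had been edited with CRISPR-Cas9. In the Carm1 KO group the guide RNA was directed at Carm1, an arginine methyltransferase gene, and in the Control KO group at the bacterial gene LacZ, with 4 libraries in each group. Both groups started from naive CD8 T cells, were kept in medium with 2.5 ng/ml IL-7 and 50 ng/ml IL-15, received Cas9 by nucleofection and gave RNA 7 days after editing. The series text also speaks of co-culture with B16F10-Ova melanoma cells, which the sample protocols do not describe. Per the labels the 4 libraries of a group are technical replicates, and the p-values reflect only how these libraries vary among themselves. An effect of the edit and one of anything else that set the 2 cell preparations apart cannot be told apart. In bulk RNA, fewer cells of a type and less RNA per cell cannot be told apart either.

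The core particle is a barrel in which rings of alpha subunits gate the entrance and rings of beta subunits carry the peptide-cutting sites, and the 19S particle binds ubiquitin-tagged proteins, unfolds them and feeds them into the barrel. Interferon gamma is known to induce alternative catalytic subunits, which take the place of the constitutive ones in newly assembled particles, and the PA28 activator that caps them. Lymphocytes are known for high levels of this immunoproteasome, which shapes the peptides shown on MHC class I.

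Total counts ran from 37556330 to 39988442 in the Carm1 KO libraries and from 38768760 to 41439998 in the Control KO libraries, where 3 counts equal 0.0724 to 0.0799 CPM, which are counts put on the same total for every library. Levels are CPM after TMM scaling and are given with their SD (n = 4 libraries in each group), and a log2 fold change is Carm1 KO minus Control KO with its standard error (SE). Carm1 itself averaged 32.8 ± 0.493 CPM in Carm1 KO and 95.9 ± 1.04 CPM in Control KO. All 10 CD8 T cell markers were detected, with a summed level of 6986 to 7194 CPM in Carm1 KO and 5041 to 5156 CPM in Control KO. Of these markers, 8 were higher and 2 lower in Carm1 KO. Of 7 melanoma markers, 5 were at 0 in every Carm1 KO library (Mlana, Tyr, Dct, Tyrp1 and Sox10) and 4 in every Control KO library. The other 2, Pmel and Mitf, were higher in Carm1 KO (log2 fold changes 1.89 and 1.27), and the sum of the 7 was 13.8 to 15.1 CPM in Carm1 KO against 4.05 to 4.31 CPM in Control KO. All 12 macrophage and monocyte markers were lower in Carm1 KO, with a sum of 88.9 to 96.6 CPM against 340 to 349 CPM in Control KO, none of them at 0 throughout a group. Ctss made up most of the Carm1 KO sum, with 81.1 ± 3.22 CPM in Carm1 KO and 175 ± 1.26 CPM in Control KO. Lyz2, the next most abundant of these markers in Control KO, averaged 0.148 ± 0.114 CPM in Carm1 KO and 83.1 ± 1.36 CPM in Control KO. The sums were 19.3 to 22.3 CPM in Carm1 KO against 176 to 187 CPM in Control KO for 5 NK cell markers, and 0.167 to 0.451 CPM in Carm1 KO against 4.76 to 5.29 CPM in Control KO for 5 erythroid markers. Eomes, which CD8 T cells also express, made up most of the NK cell sums, with 17.7 ± 1.07 CPM in Carm1 KO and 173 ± 4.71 CPM in Control KO. They were 19.5 to 20.8 CPM in Carm1 KO against 6.96 to 7.47 CPM in Control KO for 8 B cell markers, and 38.3 to 41.8 CPM in Carm1 KO against 8.65 to 9.28 CPM in Control KO for 4 CD4 T cell markers. For 6 dendritic cell markers they overlapped, at 2.88 to 4.19 CPM in Carm1 KO and 3.37 to 4.05 CPM in Control KO. The part of these other cells in the results below was not tested.

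Proteasome genes were lower in Carm1 KO almost without exception. Of the 48 tested members, 46 fell and 2 rose, though the direction of 3 small falls (Psme4, Psmd8 and Psmd10) turned under other scalings, while over all genes tested 43.2% fell and 44.5% rose (edgeR quasi-likelihood test, Benjamini-Hochberg adjusted p under 0.05). Of all genes called, 50.8% were higher with the TMM scaling used here. With upper-quartile factors this was 61.0%, and the median of all genes was 0.215 higher on the log2 scale. The members moved with it. Their median stayed 1.08 below that of all genes by construction, because new factors shift every gene alike. With a filter of 5 CPM in 4 libraries this difference, members minus all genes, was -0.968, and without a filter it was -1.295. At least 2-fold falls were found for 29 members with the TMM scaling, against 15.2% of all genes tested. This count depends on the scaling. With upper-quartile factors the median log2 fold change of the members was -0.843, so fewer members reached 2-fold. The 4 libraries of one group did not overlap with the 4 of the other for any of the 48, a separation also seen for 83.4% of all genes tested. The median log2 fold change of the members was -1.06, beside 0.02 over all genes tested. Their fold changes were also closer together than those of all genes. The SD over genes on the log2 scale was 0.555 for the members and 1.59 for all genes tested. This was not particular to the members. Among related lists described below it was 0.464 for proteasome genes with other symbols, 0.380 for genes around Nfe2l1 and 0.383 for ubiquitin genes. For the interferon gamma axis and antigen processing it was 2.04. The genes in these comparisons were not matched for level, and all genes tested, low-count genes among them, ran from -11.4 to 9.69 on the log2 scale. Together the 50 genes held 0.609% ± 0.0113 of the counts of a Carm1 KO library and 1.04% ± 0.0053 of those of a Control KO library. The mitochondrially encoded genes held 1.09 to 1.13% in Carm1 KO and 0.596 to 0.615% in Control KO, and the ribosomal protein genes 12.6 to 13.6% in Carm1 KO and 10.8 to 11.1% in Control KO. With the mitochondrially encoded genes left out, the 50 genes held 0.616% in Carm1 KO and 1.05% in Control KO. The part of the ribosomal protein share was not tested.

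The main groups of subunits were counted separately. In the constitutive core, the 7 alpha and 7 constitutive beta subunits, 13 of 14 fell and 1 rose, with a median log2 fold change of -1.07. In the 19S particle all 17 fell, with a median of -1.18, or 16 where the scaling turned Psmd8. Of the 5 immunoproteasome genes 4 fell and 1 rose, with a median of -0.79. The core held 0.183% of a library's counts in Carm1 KO and 0.323% in Control KO. The 19S particle held 0.162% in Carm1 KO and 0.312% in Control KO. The 5 immunoproteasome genes held 0.216% in Carm1 KO and 0.324% in Control KO. In Carm1 KO the 5 immunoproteasome genes thus held a larger share than the 14 core genes, whereas both shares were nearly equal in Control KO.

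**Figure D1:**
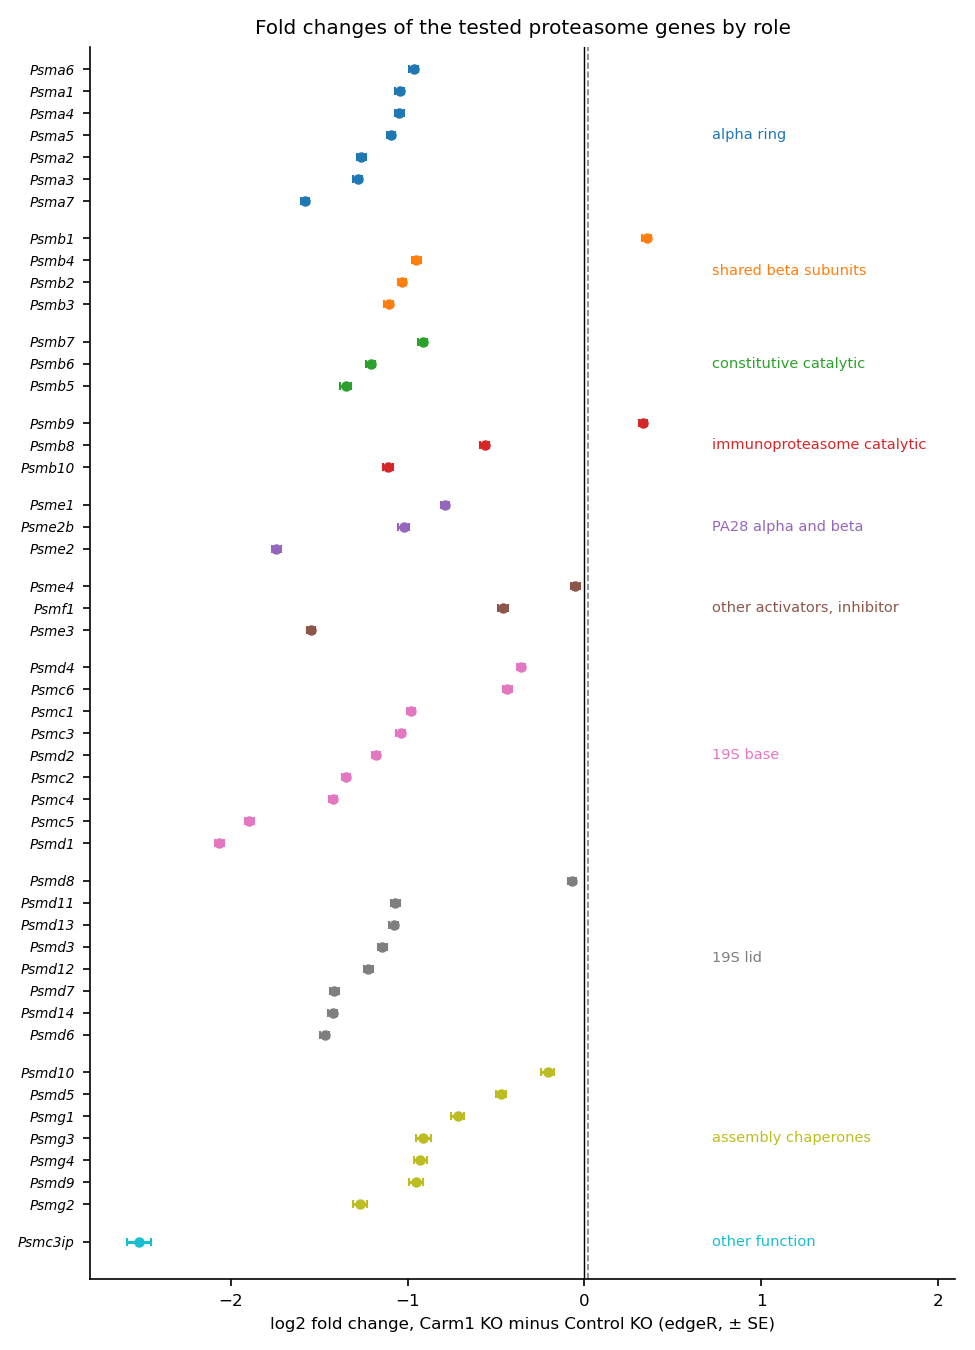
Log2 fold change (Carm1 KO minus Control KO, x axis) of each of the 48 tested proteasome genes, grouped by role from the alpha ring at the top to Psmc3ip at the bottom, with bars for the standard error and a dashed line at the median of all genes tested (0.02). Psmb1 and Psmb9 are the 2 points right of 0, while most core and 19S subunits lie near or beyond -1.

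The whole alpha ring was lower. All 7 alpha subunits fell, with log2 fold changes from -1.58 to -0.97 and an SD between genes of 0.211. Psma7, which encodes the alpha-4 subunit, stood at 140, 133, 131 and 138 CPM in the Carm1 KO libraries, against 399, 413, 405 and 404 CPM in the Control KO libraries. It had the largest fall of the ring, 2.99-fold (log2 fold change -1.58 ± 0.02, adjusted p = 3.5e-40, edgeR quasi-likelihood test). Psma3, the alpha-7 subunit, stood at 97.6, 97.2, 92.8 and 105 CPM in Carm1 KO, against 236, 243, 239 and 237 CPM in Control KO. Psma6, the alpha-1 subunit, had the smallest fall, with 123, 116, 110 and 120 CPM in Carm1 KO, against 227, 227, 231 and 229 CPM in Control KO. Even there the highest Carm1 KO library was far below the lowest Control KO library. The remaining alpha genes, Psma1, Psma2, Psma4 and Psma5, averaged 96.4 to 164 CPM in Carm1 KO and 206 to 394 CPM in Control KO.

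One shared beta subunit went the other way. Psmb1 (ENSMUSG00000014769, chromosome 17, 15475721 to 15498276, minus strand, GRCm38) encodes beta-6, a structural subunit that constitutive particles and immunoproteasomes both contain. It stood at 323, 297, 299 and 313 CPM in the Carm1 KO libraries, against 239, 246, 243 and 236 CPM in the Control KO libraries. Every Carm1 KO library was above every Control KO library, and Psmb1 rose 1.28-fold (log2 fold change 0.35 ± 0.02, adjusted p = 1.2e-16, edgeR quasi-likelihood test). The other 3 shared beta subunits fell by similar amounts. Psmb3, which encodes beta-3, stood at 97.8, 93.1, 91.7 and 92.5 CPM in Carm1 KO, against 198, 206, 205 and 200 CPM in Control KO. Psmb2, which encodes beta-4, averaged 86.3 ± 1.53 CPM in Carm1 KO and 176 ± 1.49 CPM in Control KO. Psmb4, which encodes beta-7, averaged 155 ± 6.69 CPM in Carm1 KO and 300 ± 5.68 CPM in Control KO. In Carm1 KO Psmb1 was therefore the most abundant of the 14 constitutive core genes in CPM, at rank 468 of all genes, while it ranked 818 in Control KO.

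The 3 constitutive catalytic subunits all fell. Psmb5, which encodes beta-5 with the chymotrypsin-like site, stood at 84.0, 73.6, 76.9 and 75.4 CPM in the Carm1 KO libraries, against 196, 204, 195 and 195 CPM in the Control KO libraries (log2 fold change -1.35 ± 0.03, adjusted p = 7.2e-26, edgeR). Psmb6, which encodes beta-1 with the caspase-like site, stood at 81.7, 79.3, 77.5 and 76.1 CPM in Carm1 KO, against 179, 184, 179 and 186 CPM in Control KO (log2 fold change -1.21 ± 0.03). Psmb7, which encodes beta-2 with the trypsin-like site, stood at 75.2, 74.2, 71.9 and 74.4 CPM in Carm1 KO, against 135, 142, 139 and 142 CPM in Control KO (log2 fold change -0.92 ± 0.03). The groups were widely separated for all 3. Exons of Psmb7 overlap Nek6 on the other strand by 405 bp, 11.8% of its exon length, and the library kit does not mark strand. Nek6 was low beside it, at 4.54 CPM in Carm1 KO and 19.4 CPM in Control KO.

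Their inducible counterparts split. Psmb8, which encodes beta-5i (ENSMUSG00000024338, chromosome 17, 34197721 to 34201454, plus strand), was the most abundant member in CPM in both groups. It stood at 746, 677, 686 and 685 CPM in the Carm1 KO libraries, against 1022, 1053, 1030 and 1027 CPM in the Control KO libraries. The groups did not overlap, and the fall was 1.48-fold (log2 fold change -0.57 ± 0.02, adjusted p = 8.4e-22, edgeR quasi-likelihood test), less than that of most members, and did not pass a test against a 1.5-fold change. Psmb10, which encodes beta-2i (ENSMUSG00000031897, chromosome 8, 105935735 to 105938444, minus strand), stood at 205, 184, 196 and 195 CPM in Carm1 KO, against 408, 438, 417 and 422 CPM in Control KO. Its fall of 2.16-fold (log2 fold change -1.11 ± 0.03, adjusted p = 6.9e-27, edgeR) was close to the median of all members.

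Psmb9, which encodes beta-1i (ENSMUSG00000096727, chromosome 17, 34181988 to 34187764, minus strand), rose. It stood at 416, 388, 392 and 396 CPM in the Carm1 KO libraries, against 304, 324, 315 and 323 CPM in the Control KO libraries. All 4 Carm1 KO libraries lay above all 4 Control KO libraries, and the rise was 1.26-fold (log2 fold change 0.33 ± 0.02, adjusted p = 5.7e-16, edgeR quasi-likelihood test). Neither Psmb9 nor Psmb1 passed a test against a 1.5-fold change. Psmb9 ranked 348 among all genes by CPM in Carm1 KO and 573 in Control KO. In the annotation of the count files its 5′ end overlaps Tap1 on the other strand by 212 bp, 5.79% of the exon length of Psmb9, and Tap1 was at about the same multiple of Psmb9 in both groups (201% in Carm1 KO and 213% in Control KO). How reads in the overlap were assigned is not given in the sources used here.

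**Figure D2:**
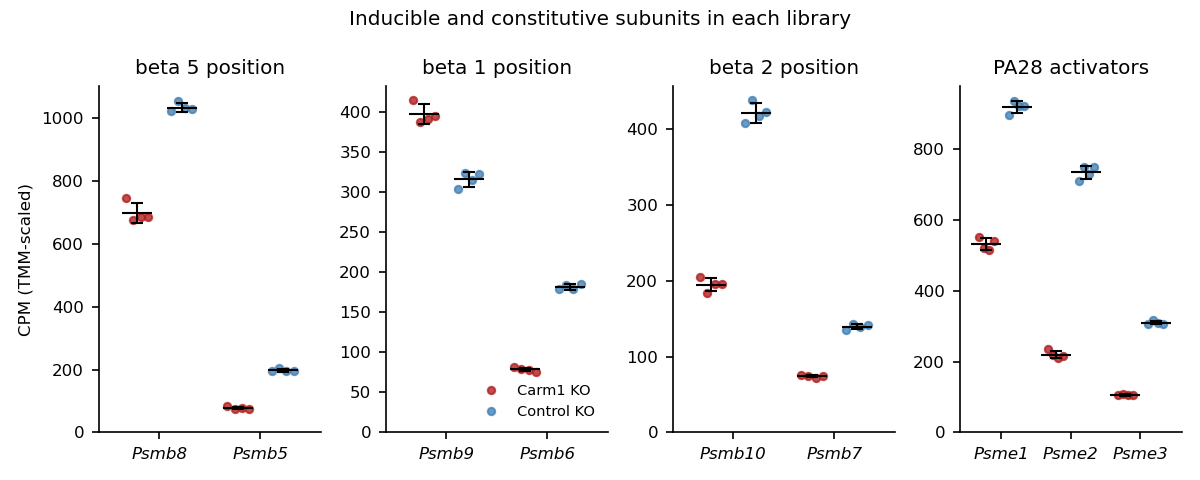
Level in CPM (TMM-scaled, y axis, a scale of its own in each panel) of the inducible subunits and the subunits they replace, and of the PA28 activator genes, with 1 point per library, Carm1 KO left of Control KO, and the mean with its SD over 4 libraries. Of the 9 genes plotted, Psmb9 is the one whose Carm1 KO libraries (388 to 416 CPM) lie above the Control KO libraries (304 to 324 CPM).

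The bases ahead of the start sites are shown for these catalytic subunits because members of a replaced pair moved by different amounts. Sequences are from the RefSeq promoter table (GRCm38.p6, 5′ to 3′ on the gene's strand, ending at the base before the RefSeq start), which held 42 of the 50 members, but neither Psmb7 nor Psmb1. For Psmb9 the whole stretch of 225 bases between its start and that of Tap1 is given (chr17:34187331-34187555, minus strand). The stretches of 100 bases are chr17:34198095-34198194 on the plus strand for Psmb8, chr8:105938393-105938492 on the minus strand for Psmb10, chr14:54617996-54618095 on the minus strand for Psmb5 and chr11:70525257-70525356 on the plus strand for Psmb6. The stretches of Psmb9 and Psmb8 lie inside the longer gene spans of the count files, and that of Psmb10 partly does. Capitals mark a GC box (GGGCGG) and an inverted CCAAT box (ATTGG) for Psmb9, and matches to the antioxidant response motif (TGACNNNGC) for Psmb5 and Psmb6.
Psmb9: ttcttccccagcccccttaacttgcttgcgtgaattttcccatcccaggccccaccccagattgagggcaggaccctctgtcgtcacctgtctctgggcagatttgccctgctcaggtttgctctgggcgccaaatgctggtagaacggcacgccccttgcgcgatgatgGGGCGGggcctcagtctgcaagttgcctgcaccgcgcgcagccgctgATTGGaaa
Psmb8: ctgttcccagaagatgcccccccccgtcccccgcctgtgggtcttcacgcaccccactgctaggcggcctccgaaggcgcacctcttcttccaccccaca
Psmb10: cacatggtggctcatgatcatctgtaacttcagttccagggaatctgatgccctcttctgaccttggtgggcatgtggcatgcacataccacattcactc
Psmb5: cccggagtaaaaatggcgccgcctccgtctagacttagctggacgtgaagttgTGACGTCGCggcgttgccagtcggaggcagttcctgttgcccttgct
Psmb6: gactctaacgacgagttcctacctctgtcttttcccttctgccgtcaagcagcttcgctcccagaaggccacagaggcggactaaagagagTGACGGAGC

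Motifs were then searched by their letters. The antioxidant response motif, bound by the Nfe2l1 and Nfe2l2 factors that are known to drive proteasome genes, was searched on both strands of the 250 bases before each start and occurred in 5 of 42 members (Psmb5, Psmb6, Psmc6, Psmd12 and Psmd9), beside 10.4% of the 21263 protein-coding promoters in the table. An interferon response motif (GAAA, any 2 bases, GAAA) occurred in 3 of 42 members (Psmb3, Psmd4 and Psmd9), beside 2.96% of protein-coding promoters. A STAT motif (TTCCNGGAA) occurred in 0 of 42, beside 0.950% of protein-coding promoters. The GC box occurred in 22 of 42 members, beside 42.6% of protein-coding promoters, and the CCAAT box in 15 of 42, beside 35.4%. These last 2 motifs were added after the sequences had been seen. The motifs can share bases with one another, a match is a description of letters, and the absence of one says only that these letters are not in this window.

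Within a library, the balance of each inducible subunit to its constitutive partner does not depend on scaling between libraries. Counts per kb of annotated exon gave a Psmb9 to Psmb6 ratio of 2.61, 2.50, 2.59 and 2.66 in the Carm1 KO libraries, against 0.870, 0.901, 0.900 and 0.887 in the Control KO libraries. At the beta-1 position the inducible transcript thus exceeded the constitutive one in Carm1 KO and was slightly below it in Control KO, a 2.91-fold difference (1.54 on the log2 scale). The Psmb8 to Psmb5 ratio was 2.83, 2.93, 2.84 and 2.89 in Carm1 KO, against 1.66, 1.64, 1.68 and 1.68 in Control KO, a 1.72-fold difference (0.79 on the log2 scale). The beta-2 position went the other way, with a Psmb10 to Psmb7 ratio of 5.47, 4.98, 5.46 and 5.26 in Carm1 KO, against 6.06, 6.17, 6.03 and 5.98 in Control KO (-0.20 on the log2 scale). For each of these 3 ratios, and for the 2 of PA28 given below, the groups did not overlap and the two-sided p from an exact permutation test over libraries (n = 4 in each group) was 0.0286, which is as low as this design can go, with the same value after Benjamini-Hochberg adjustment over the 5 ratios. The absolute ratios depend on the transcript length used. With the principal transcript in place of all exons, Psmb9 to Psmb6 was 2.99 in Carm1 KO and 1.03 in Control KO, Psmb8 to Psmb5 was 4.98 in Carm1 KO and 2.89 in Control KO, and Psmb10 to Psmb7 was 2.33 in Carm1 KO and 2.67 in Control KO, while the differences between groups stay the same by construction.

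**Figure D3:**
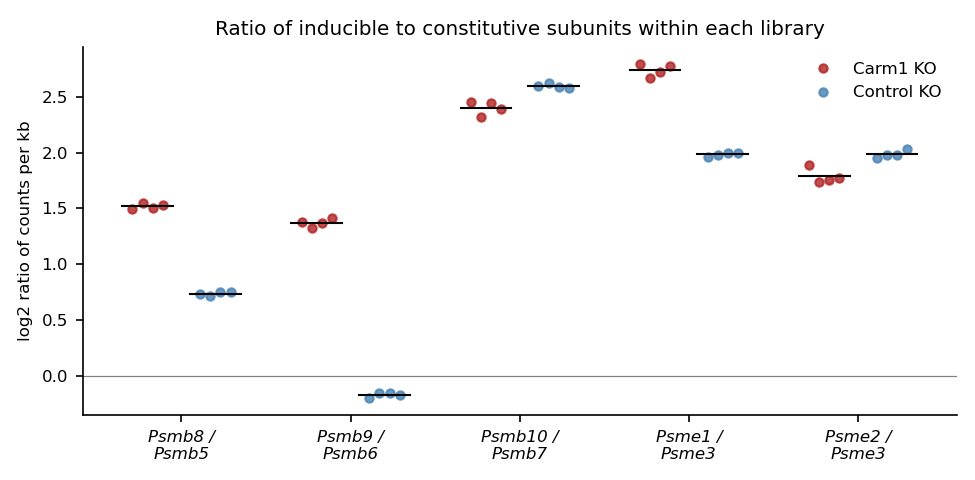
Log2 ratio of counts per kb of annotated exon (y axis) for 5 pairs of an inducible gene to its constitutive or nuclear counterpart, with 1 point per library, lines at the means, and Carm1 KO left of Control KO. The ratio of Psmb9 to Psmb6 averages 1.37 in Carm1 KO and -0.17 in Control KO, while those of Psmb10 to Psmb7 and Psme2 to Psme3 are slightly lower in Carm1 KO.

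Psmb9 and Psmb8 lie in the MHC class II region on chromosome 17 beside Tap1 and Tap2, which encode the transporter that carries peptides into the endoplasmic reticulum. The order along the chromosome is Psmb9, Tap1, Psmb8 and Tap2, and Psmb9 is transcribed away from the other 3. Tap1 (34187553 to 34197225) stood at 808, 796, 806 and 790 CPM in the Carm1 KO libraries, against 662, 680, 673 and 681 CPM in the Control KO libraries. It rose, as did Psmb9, whose RefSeq start lies 225 bases from its own, with a log2 fold change of 0.25 ± 0.02. Tap2 (34203527 to 34216321) stood at 395, 367, 380 and 380 CPM in Carm1 KO, against 462, 483, 477 and 473 CPM in Control KO. It fell, as Psmb8 did, with a log2 fold change of -0.32 ± 0.02. Like Psmb9 and Psmb8, neither Tap1 nor Tap2 passed a test against a 1.5-fold change. Over all alternatives the log2 fold change ran from 0.22 to 0.46 for Tap1 and from -0.34 to -0.10 for Tap2.

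**Figure D4:**
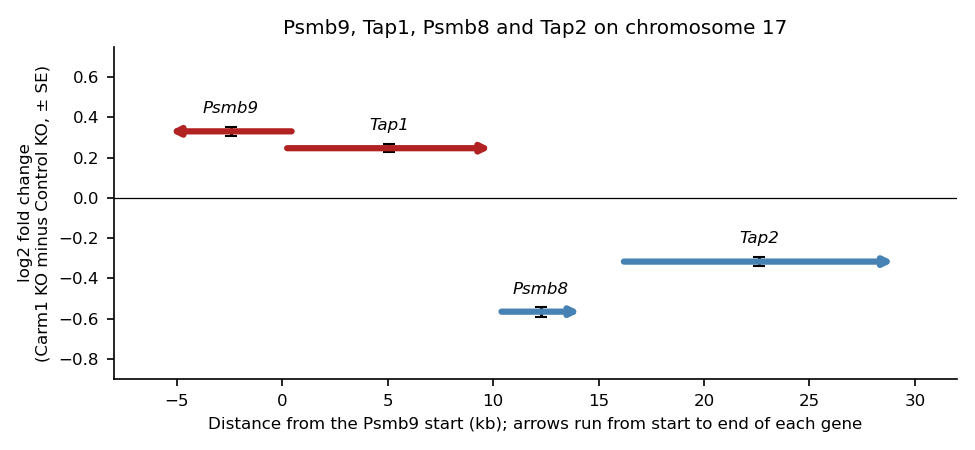
Positions of Psmb9, Tap1, Psmb8 and Tap2 (x axis, kb from the RefSeq start of Psmb9; arrows run from start to end of each gene as in the count files) and their log2 fold changes (y axis, Carm1 KO minus Control KO, with the SE). The divergent pair Psmb9 and Tap1 is above 0 (0.33 and 0.25), and Psmb8 and Tap2 are below 0 (-0.57 and -0.32). None of these genes passed a test against a 1.5-fold change.

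The PA28 activator, a cap of alpha and beta chains that opens the core without ubiquitin, was lower, and its chains were lower by different amounts. Psme1, the alpha chain (ENSMUSG00000022216, chromosome 14, 55578123 to 55581529, plus strand), stood at 550, 520, 515 and 539 CPM in the Carm1 KO libraries, against 895, 936, 922 and 920 CPM in the Control KO libraries. Psme2, the beta chain (ENSMUSG00000079197, chromosome 14, 55587441 to 55591113, minus strand), stood at 234, 218, 210 and 215 CPM in Carm1 KO, against 710, 747, 729 and 749 CPM in Control KO. The groups were far apart for both, and Psme2 fell 3.35-fold (log2 fold change -1.74 ± 0.03, adjusted p = 4.2e-32, edgeR), where Psme1 fell 1.73-fold (log2 fold change -0.79 ± 0.02, adjusted p = 7.7e-30, edgeR). Psme2b, a second PA28 beta gene on chromosome 11, shares 99.4% of 794 aligned bases with Psme2, so its counts and part of those of Psme2 are uncertain. It averaged 33.8 ± 1.78 CPM in Carm1 KO and 68.8 ± 1.70 CPM in Control KO.

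Other caps and the inhibitor ranged from a large fall to almost none. Psme3, which encodes the nuclear PA28 gamma, stood at 106, 109, 104 and 105 CPM in the Carm1 KO libraries, against 306, 316, 309 and 307 CPM in the Control KO libraries (log2 fold change -1.55 ± 0.02, adjusted p = 3.7e-40, edgeR). The Psme1 to Psme3 ratio per kb of exon was 6.68 in Carm1 KO and 3.96 in Control KO, a 1.69-fold difference (0.76 on the log2 scale). The Psme2 to Psme3 ratio was 3.46 in Carm1 KO and 3.96 in Control KO (-0.20 on the log2 scale). With Psme2 and Psme2b summed this difference was -0.12 and the exact permutation p was 0.0571, above the threshold, an alternative chosen after seeing the data. Psmf1, which encodes the proteasome inhibitor PI31, stood at 43.4, 42.2, 43.6 and 43.6 CPM in Carm1 KO, against 58.0, 60.7, 57.9 and 61.4 CPM in Control KO, a log2 fold change of -0.46 ± 0.03.

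Psme4, which encodes the nuclear activator PA200, stood at 85.1, 89.1, 88.5 and 89.2 CPM in the Carm1 KO libraries, against 91.3, 93.4, 89.3 and 90.9 CPM in the Control KO libraries. The groups nearly touched, and the log2 fold change was -0.05 ± 0.02 (adjusted p = 0.048, edgeR). This call ended without Carm1 KO replicate 1 (edgeR adjusted p = 0.12), without Carm1 KO replicate 2 (0.057) and without Control KO replicate 2 (0.080), in a range of 1.7e-07 to 1 over all alternatives. Psme4 also lost the call with limma-voom, with the replicate number as a block and in the test against a 1.5-fold change. Its direction turned with upper-quartile factors (0.16), library totals (0.11) and a filter at 5 CPM (0.04), so no direction can be given for Psme4.

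In the base of the 19S particle, all 9 subunits fell, with no direction turned by the scaling. Psmd1, the large scaffold subunit Rpn2, stood at 50.3, 50.8, 50.6 and 50.3 CPM in the Carm1 KO libraries, against 212, 213, 211 and 211 CPM in the Control KO libraries. It had the largest fall of all subunits, 4.19-fold (log2 fold change -2.07 ± 0.02, adjusted p = 9.1e-44, edgeR), with very little spread between libraries. Psmc5, one of the 6 AAA ATPases that unfold substrates (Rpt6), stood at 53.6, 52.8, 52.4 and 54.8 CPM in Carm1 KO, against 192, 206, 204 and 193 CPM in Control KO, a 3.72-fold fall. At the other end was Psmd4, the ubiquitin receptor Rpn10, with 138, 132, 131 and 132 CPM in Carm1 KO, against 168, 172, 172 and 170 CPM in Control KO (log2 fold change -0.36 ± 0.02). Although this was the smallest fall of the base, the highest Carm1 KO library was below the lowest Control KO library. The ATPase gene Psmc6 (Rpt4) also fell little, at 81.4 ± 3.08 CPM in Carm1 KO and 110 ± 3.27 CPM in Control KO. The other 4 ATPase genes, Psmc1, Psmc2, Psmc3 and Psmc4, had log2 fold changes from -1.42 to -0.98, and Psmd2, the scaffold subunit Rpn1, had -1.18. The transcripts of the 6 ATPases, which sit together in 1 ring, thus fell by 0.44 to 1.90 on the log2 scale.

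All 8 subunits of the 19S lid fell by the same test, 7 of them at least 2-fold with the TMM scaling and Psmd8 in no fixed direction. Over all alternatives the smallest falls of Psmd3, Psmd11 and Psmd13 were -0.93, -0.85 and -0.87 on the log2 scale, short of 2-fold. Psmd6, which encodes Rpn7, stood at 49.3, 45.4, 46.4 and 46.4 CPM in the Carm1 KO libraries, against 128, 131, 130 and 131 CPM in the Control KO libraries (log2 fold change -1.47 ± 0.03). Psmd14, the deubiquitinase Rpn11 that removes ubiquitin chains from substrates, stood at 61.2, 60.9, 59.4 and 62.3 CPM in Carm1 KO, against 165, 161, 164 and 164 CPM in Control KO (log2 fold change -1.42 ± 0.02, adjusted p = 8.3e-38, edgeR). Psmd8, which encodes Rpn12, stood at 168, 158, 160 and 163 CPM in Carm1 KO, against 169, 171, 170 and 172 CPM in Control KO. Its highest Carm1 KO library was just below its lowest Control KO library, the log2 fold change was -0.07 ± 0.02 (adjusted p = 0.0049, edgeR), and the direction turned with upper-quartile factors (0.14), library totals (0.09) and a filter at 5 CPM (0.02), so none can be given. The other lid genes, Psmd3, Psmd7, Psmd11, Psmd12 and Psmd13, averaged 59.4 to 130 CPM in Carm1 KO and 139 to 288 CPM in Control KO. Psmd13 overlaps Sirt3 on the other strand by 342 bp, and Sirt3 was at 21.9 CPM in Carm1 KO and 6.20 CPM in Control KO.

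The 7 assembly chaperones, which help the rings and the base to form and are not part of the mature particle, had a median log2 fold change of -0.91 and all fell, Psmd10 among them without a fixed direction. Psmg2, which encodes PAC2, a chaperone of the alpha ring, stood at 21.5, 19.6, 21.3 and 21.3 CPM in the Carm1 KO libraries, against 50.9, 47.7, 52.0 and 51.2 CPM in the Control KO libraries (log2 fold change -1.27 ± 0.04). Psmd9, the base chaperone p27, stood at 21.3, 18.5, 19.9 and 19.6 CPM in Carm1 KO, against 37.4, 38.3, 38.1 and 39.7 CPM in Control KO. Psmd10, the base chaperone gankyrin, stood at 34.6, 33.1, 33.3 and 34.6 CPM in Carm1 KO, against 41.1, 37.9, 37.0 and 40.5 CPM in Control KO (log2 fold change -0.21 ± 0.04, adjusted p = 1.6e-06, edgeR). The groups stayed apart for all 3, but with upper-quartile factors the log2 fold change of Psmd10 was 0.01 (edgeR adjusted p = 0.83, in a range of 8.5e-11 to 1 over all alternatives), so its direction depends on the scaling. The other 4, Psmd5, Psmg1, Psmg3 and Psmg4, had log2 fold changes from -0.93 to -0.47.

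The remaining 3 members are known from other tissues. Psma8, an alpha subunit of the testis, had 1 to 4 counts per library in Carm1 KO and 1 to 3 in Control KO, and Psmb11, the beta-5t subunit of thymic epithelium, had 0 to 1 counts in Carm1 KO and 0 to 2 in Control KO, so neither was tested. Psmc3ip encodes a meiotic recombination factor, not a proteasome subunit, and was taken in by its symbol. It stood at 2.68, 2.36, 2.80 and 2.48 CPM in Carm1 KO, against 14.8, 14.2, 15.03 and 15.1 CPM in Control KO, a 5.74-fold fall. It shares 385 bp, 21.2% of its exon length, with Mlx on the other strand, and Mlx was above it at 34.0 CPM in Carm1 KO and 54.0 CPM in Control KO.

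Levels were compared between genes as CPM per kb of the principal transcript, which was known for 47 of the 50 members. In Carm1 KO the order was Psme1 (478 ± 14.9 CPM per kb), Psmb8 (429 ± 19.6), Psmb9 (295 ± 9.12), Psme2 (228 ± 10.9) and Psmb1 (175 ± 6.90). In Control KO it was Psme1 (826 ± 15.3 CPM per kb), Psme2 (763 ± 19.03), Psmb8 (635 ± 8.43), Psma7 (443 ± 6.20) and Psmb10 (321 ± 9.77). Neighbours in these orders were further apart than the sum of their SDs. The order depends on the length used. For some members the principal transcript is longer than the exons that were counted. It has 2911 bp against 944 bp for Psma2, and 1758 bp against 1036 bp for Psmb1. Their levels per kb of principal transcript are thus divided by bases that were not counted, and their places in these orders are uncertain. Per kb of annotated exon it was Psmb1 (297 CPM per kb), Psmb8 (255) and Psme1 (240) in Carm1 KO, and Psma2 (417), Psme2 and Psme1 (both 416) in Control KO, where these 3 were nearly equal. With either length Psme1 was about level with Psme2, or slightly above it, in Control KO and well above it in Carm1 KO. Psmb9 was at 295 ± 9.12 CPM per kb in Carm1 KO and 234 ± 6.80 CPM per kb in Control KO, and Psmb6, which it replaces, at 98.6 ± 3.01 CPM per kb in Carm1 KO and 228 ± 4.45 CPM per kb in Control KO.

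Proteasome genes with other symbols fell as well. Of 11 tested, 10 fell and 1 rose, the median log2 fold change was -0.63, and the small fall of Zfand5 turned with upper-quartile factors. Pomp, the chaperone that beta subunits need for core assembly, stood at 95.6, 89.9, 89.2 and 96.9 CPM in the Carm1 KO libraries, against 189, 191, 187 and 190.5 CPM in the Control KO libraries, a 2.04-fold fall and close to that of the core. The deubiquitinases Usp14 and Uchl5, which bind the 19S particle, fell 1.26 and 1.40 on the log2 scale, and the ubiquitin receptor Adrm1 fell by 0.75. Akirin2, known to carry proteasomes into the nucleus, was the 1 that rose, with 37.3 ± 2.79 CPM in Carm1 KO and 32.1 ± 0.849 CPM in Control KO.

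Genes around Nfe2l1, the factor that raises proteasome transcription when proteasome activity drops, were mostly lower. Of 12 tested, 11 fell and 1 rose, the median log2 fold change was -0.64, and Ngly1 turned with upper-quartile factors and library totals. The 1 that rose was Bach1, at 43.8 ± 1.69 CPM in Carm1 KO and 39.0 ± 0.616 CPM in Control KO. Nfe2l1 itself stood at 68.7, 68.9, 71.5 and 70.9 CPM in the Carm1 KO libraries, against 110, 112, 109 and 106 CPM in the Control KO libraries, without overlap (log2 fold change -0.64 ± 0.03). Vcp, the segregase that pulls Nfe2l1 out of the membrane, averaged 299 ± 3.08 CPM in Carm1 KO and 482 ± 4.92 CPM in Control KO. Its cofactor Nploc4, the related factor Nfe2l2 and the small Maf partner Mafk fell, with log2 fold changes of -0.67, -0.99 and -0.79 in that order. Of the tested genes for ubiquitin, its activating enzymes and shuttle factors that are reported here, 9 of 9 fell, with a median of -0.46, but the small falls of the ubiquitin genes Ubb and Rps27a turned with the same 2 scalings. Uba1, the main ubiquitin-activating enzyme, averaged 442 ± 4.29 CPM in Carm1 KO and 894 ± 10.6 CPM in Control KO. The shuttle factors Ubqln4 and Ubqln1, which bring ubiquitin-tagged proteins to the proteasome, fell, with log2 fold changes of -1.01 and -0.98 in that order.

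The interferon gamma axis and antigen processing, to which the inducible subunits belong, moved in both directions. Of the 16 genes reported here 11 fell and 5 rose (Ifngr1, Ifngr2, Jak1, Jak2 and Tap1). Their median log2 fold change was -0.30. With upper-quartile factors 9 fell and 5 rose, and with RLE factors 4 rose, as the small rise of Ifngr2 (log2 fold change 0.07) was no longer called. Ifng, the cytokine gene, stood at 0.31, 0.70, 0.45 and 0.65 CPM in the Carm1 KO libraries, against 137, 133, 133 and 129 CPM in the Control KO libraries. Irf1, an interferon-induced transcription factor that is known to act on Psmb9 and Tap1, averaged 626 ± 4.51 CPM in Carm1 KO and 966 ± 14.3 CPM in Control KO (log2 fold change -0.63 ± 0.02). Nlrc5, the transactivator of MHC class I genes, averaged 408 ± 11.3 CPM in Carm1 KO and 499 ± 1.61 CPM in Control KO. The peptide-loading chaperones Calr and Pdia3 fell by 1.63 and 1.31 on the log2 scale, and the peptide-trimming enzyme Erap1 fell by 1.38.

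**Figure D5:**
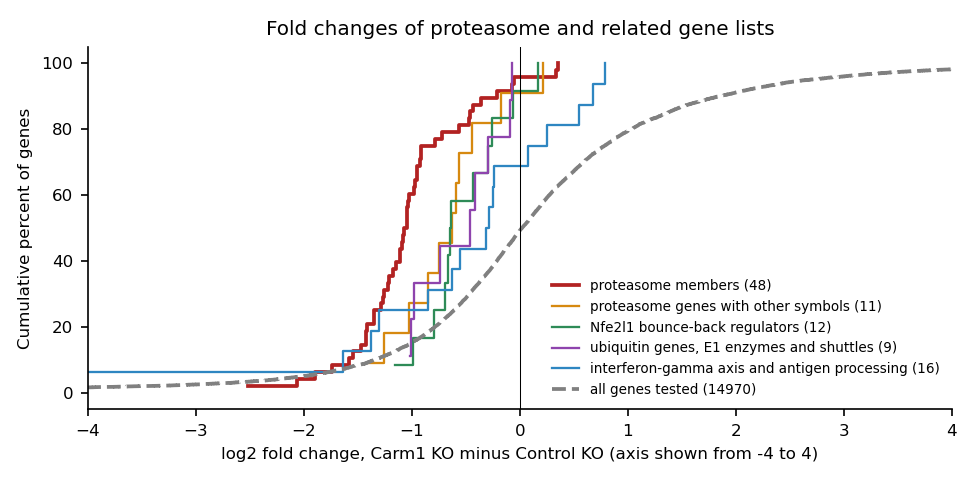
Cumulative percent of genes (y axis) by log2 fold change (x axis, Carm1 KO minus Control KO, shown from -4 to 4) for the 48 tested proteasome members, 4 lists of related genes and all 14970 genes tested (dashed). The curve of the members is steep with its median at -1.06, while the interferon gamma axis and antigen processing genes are spread widely around -0.30 and all genes tested around 0.02.

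Near-identical copies and overlaps were looked for across all members. Of the 48 tested, 31 had no other annotated transcript with at least 95% identity over at least 150 bases. The other 17 had one, and in 10 of them its level exceeded 1% of that of the member in either group, with Psme2, Psme2b, Psmb7, Psmb9, Psmd13 and Psmc3ip described above. For Psmb7, Psmb9, Psmd13 and Psmc3ip the match was the overlapping neighbour on the other strand, not a copy elsewhere. Exons of Psmc3 overlap Slc39a13 on the other strand by 215 bp, 8.25% of its exon length. Slc39a13 was at 18.4 CPM in Carm1 KO and 4.81 CPM in Control KO. Among the processed pseudogenes, Gm13835, a copy of Psma3, had the highest level, with 2.82 CPM in Carm1 KO and 6.62 CPM in Control KO, which was 2.88% of the level of Psma3 in Carm1 KO and 2.77% in Control KO. A730017L22Rik, annotated as a processed transcript, matches Psmd11 at 97.9% identity over 1501 bases. It was at 4.42 CPM in Carm1 KO and 5.81 CPM in Control KO, which was 5.94% of the level of Psmd11 in Carm1 KO and 3.72% in Control KO. The 4 pseudogenes whose own symbol begins with Psm had at most 4 counts in any library.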

How the data were processed

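RNA from 4 Carm1 KO and 4 Control KO libraries was sequenced by the submitters as paired 150 bp reads after a TruSeq preparation that does not mark strand, from RNA with an integrity number above 9.5, per the labels' protocols. The values are whole-number counts by Ensembl gene as deposited. The authors named RSEM for counting, per the labels' protocols, and mm10 as the build, per the submitters' processing notes, while the columns are laid out like those of an exon-counting program. RSEM output need not be whole, and no source used here says what made it so. For the aligner, the annotation, the strand setting and every version, the same holds. That step may have split or lost reads that fit more than 1 gene.

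Symbols were matched by Ensembl identifier to GENCODE M21 on GRCm38, the assembly of mm10 (48970 of 49315). The members and lists were chosen with earlier results of these data known. Genes were kept by filterByExpr, scaled with TMM factors (1.05 to 1.07 in Carm1 KO and 0.938 to 0.953 in Control KO) and tested on the deposited counts with edgeR 4.0.16 in R 4.3.3 (two-sided quasi-likelihood F test with robust fitting), with Benjamini-Hochberg adjustment over 14970 genes and a threshold of 0.05. The SE is the log2 fold change divided by the square root of F. Ratios within a library were compared by exact permutation tests (scipy 1.17.1). Copies were sought with BLAST 2.17.0. The edgeR step was tested on simulated data.

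Text names follow a rule: the catalytic pairs, the activators and the inhibitor regardless of result, the 2 largest and the smallest changes of each other member list, members against their list's direction, the 4 smallest adjusted p of each related list plus 6 genes of interest. All other members are given by symbol with a range or mean. The genes Psmc6, Tap2, Akirin2, Bach1, Zfand5, Ngly1, Ubb, Rps27a, Ifngr1, Ifngr2, Jak1, Jak2, Gm13835, A730017L22Rik and Slc39a13 were named after their values were seen. Some genes of the related lists are not reported here, and list counts and medians leave them out. For the marker lists sums are given, and of the 2 most abundant genes of each list, which the rule also takes, Pmel, Mitf, Eomes, Ctss and Lyz2 are named. Libraries were not copies of one another (chi-square per degree of freedom 1.45 to 13.5 within groups). Alternatives were RLE, upper-quartile and no scaling factors, no filter and a filter of 5 CPM in 4 libraries, DESeq2 1.42.0, limma-voom (limma 3.58.1), blocking on the replicate number, testing against a 1.5-fold change, and leaving out each library. Protein sequences were not used here.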

Additional observations from a re-analysis of the deposited data

Results flagged for a closer look

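In groups of 4 libraries, 1 library stood far from the other 3 for 7 of 108 sets of values examined, where chance flags about 1 in 20 groups. The sets were the CPM of each tested member, the 5 ratios and the share of counts in the members, in each group. Psmb8 was at 745.9 CPM in Carm1 KO replicate 1, above the other Carm1 KO libraries at 676.8 to 685.9 CPM. Psme4 was at 85.08 CPM in Carm1 KO replicate 1, below the others at 88.53 to 89.21 CPM. Psmf1 was at 42.21 CPM in Carm1 KO replicate 2, below the others at 43.43 to 43.59 CPM. Psmg2 was at 19.57 CPM in Carm1 KO replicate 2, below the others at 21.28 to 21.5 CPM. Psmb5 was at 204.4 CPM in Control KO replicate 2, above the other Control KO libraries at 194.6 to 195.7 CPM. Psmc4 was at 190.6 CPM in Control KO replicate 1, below the others at 194.9 to 195.6 CPM. Psmd12 was at 135.6 CPM in Control KO replicate 3, below the others at 139.4 to 139.6 CPM.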

How the results depend on the processing

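Of 816 combinations of a tested member and an alternative, 793 kept the direction and the call, 16 kept the direction without the call and 7 turned direction, and 38 of the 48 members kept both under all 17 alternatives. The count of members that rose was 4 with upper-quartile factors and 4 with library totals, where Psme4 and Psmd8 joined Psmb1 and Psmb9, and 1 subunit of the 19S particle (Psmd8) rose under each. Under those scalings the median of all genes was 0.215 and 0.160 higher on the log2 scale, and that of the members was -0.843 and -0.898. The median of the members was -0.965 with the filter of 5 CPM. All 48 tested members passed that filter, and the TMM factors were computed anew on the genes it kept. The part of the new factors in this shift was not tested separately. In edgeR's test against a 1.5-fold change 0 members rose, hence 0 in the core and 0 among the immunoproteasome genes, also at an unadjusted p, because Psmb1 and Psmb9 rose by less than that, while edgeR's main test, DESeq2 and limma-voom each called 2. That test left 38 members lower, 14 of them in the 19S particle and 3 among the immunoproteasome genes, where Psmb8 no longer passed. Over all alternatives the log2 fold change ran from 0.33 to 0.57 for Psmb1 and from 0.30 to 0.55 for Psmb9. Reversed log2 fold changes with upper-quartile factors, library totals and the filter of 5 CPM were 0.1627, 0.1079 and 0.0406 for Psme4, and 0.1438, 0.0888 and 0.0218 for Psmd8. Psmd10 was at 0.0082 with upper-quartile factors.

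Leaving out 1 library kept the differences in log2 ratio at 0.7766 to 0.7931 for Psmb8 to Psmb5, 1.5285 to 1.5579 for Psmb9 to Psmb6, -0.2126 to -0.1677 for Psmb10 to Psmb7, 0.7369 to 0.7798 for Psme1 to Psme3 and -0.2314 to -0.181 for Psme2 to Psme3, but 3 against 4 cannot reach an exact permutation p below 0.0571, which is the value each gave. The summed Psme2 and Psme2b gave -0.1198. Libraries with the same replicate number did not deviate together (correlations -0.0848 to -0.0509), so the numbers do not pair them. With the replicate number as a block the differences were 0.7858, 1.5417, -0.1967, 0.7559 and -0.1975 in the same order, each with an exact sign-flip p = 0.125, the smallest for 4 pairs, and 45 members fell and 2 rose.

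The 4 libraries of a group are technical replicates, so these tests do not cover the spread between cultures or animals. Depth limits only Psma8 and Psmb11 among the members, which had too few counts to be tested.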
